A study of Mus musculus with 2 samples.

Results

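The Ikaros zinc finger family comprises 5 mouse genes, Ikzf1 (Ikaros), Ikzf2 (Helios), Ikzf3 (Aiolos), Ikzf4 (Eos) and Ikzf5 (Pegasus), taken here by gene symbol from the 43346 rows of the gene table that carry an Ensembl identifier. The data are 2 poly(A)-selected RNA-seq libraries, labelled biological replicates 1 and 2, of immortalized mouse G1E-ER4 cells that had spent 24 hours with 17beta-estradiol at 10 nM. G1E-ER4 is a subclone of an erythroid progenitor line that lacks its own Gata1 and carries GATA-1 fused to the hormone-binding part of the oestrogen receptor, so that hormone switches GATA-1 on and the cells mature. Both libraries belong to the same group and no untreated culture was analysed here, so every value describes the induced state and none is a response to the hormone. With 2 libraries the smallest p that a sign-flip permutation could give is 0.5, and no p is given.

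Ikaros proteins are DNA-binding factors built from zinc fingers, small loops held by a zinc ion between cysteines and histidines. The fingers near the start of the protein contact DNA at sites with a GGGAA core, and a pair at the end lets family members join each other. Ikaros, Helios, Aiolos and Eos are best known from lymphocytes, where they bring chromatin remodelling and histone deacetylase complexes to target genes. Pegasus is a more distant relative. Splice forms of Ikaros that lose DNA-binding fingers can pair with full forms and alter their action. In erythroid cells Ikaros has been linked to the switch between globin genes.

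The bases that encode finger 2, a finger that Ikaros uses to hold its core site, show how close Ikzf2, Ikzf3 and Ikzf4 are to Ikzf1. They are shown for each member, with finger 2 of Ikzf5 taken by its order in the protein. The sequences are read 5′ to 3′ on the coding strand from GENCODE M21 transcripts (GRCm38), with the codons of the zinc-holding cysteines and histidines in capitals.
Ikzf1: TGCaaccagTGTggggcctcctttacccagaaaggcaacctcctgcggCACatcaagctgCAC
Ikzf2: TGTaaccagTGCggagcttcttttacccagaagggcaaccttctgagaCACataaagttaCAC
Ikzf3: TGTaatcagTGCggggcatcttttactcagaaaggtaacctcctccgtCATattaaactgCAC
Ikzf4: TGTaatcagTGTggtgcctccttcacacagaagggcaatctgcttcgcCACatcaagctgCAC
Ikzf5: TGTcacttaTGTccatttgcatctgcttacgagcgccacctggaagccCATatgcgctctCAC
They lie within single exons at chr11:11754024-11754086 (plus strand, Ikzf1), chr1:69570581-69570643 (minus, Ikzf2), chr11:98488940-98489002 (minus, Ikzf3), chr10:128640229-128640291 (minus, Ikzf4) and chr7:131392501-131392563 (minus, Ikzf5). Of the 63 bases, Ikzf2 and Ikzf3 each share 51 with Ikzf1, or 81.0%, and Ikzf4 shares 53, or 84.1%. Ikzf5 shares 26, or 41.3%, when its finger 2 is set against that of Ikzf1 by order in the protein. As Ikzf5 has fewer fingers, these may not be matching fingers, and no other pairing was tried. A pattern search asked for 2 cysteines, 12 residues, a histidine and then a further histidine or a cysteine. It found 6 fingers in the full form of Ikzf1, Ikzf2, Ikzf3 and Ikzf4, and 5 in that of Ikzf5.

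Ikzf1 carried most of the family's mRNA, Ikzf5 was the only other member detected, and Ikzf2, Ikzf4 and Ikzf3 were near or at 0. Levels are in TPM, transcripts per 1000000 after division by effective length, and a gene that reached 1 TPM in replicate 1 and in replicate 2 counts as detected. The detected members were 2 of 5, or 40.0%, against 41.2% of the 21474 annotated protein-coding genes, so the share detected is that of protein-coding genes at large. At 0.1 TPM, or with 10 expected counts, in both libraries 4 of the members passed, Ikzf2 and Ikzf4 included. The share of protein-coding genes that pass at these lower settings was not computed, so that count has no background beside it. Summed over the members, the family held 159.9 and 168.1 TPM in replicates 1 and 2, a mean of 164.0 ± 5.80 TPM (SD, n = 2). Ikzf1 made up 82.7% ± 0.951 of that sum and Ikzf5 16.7% ± 1.17. In expected counts, which are not divided by length, the shares were 77.5% ± 0.999 for Ikzf1 and 21.5% ± 1.06 for Ikzf5.

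**Figure D1:**
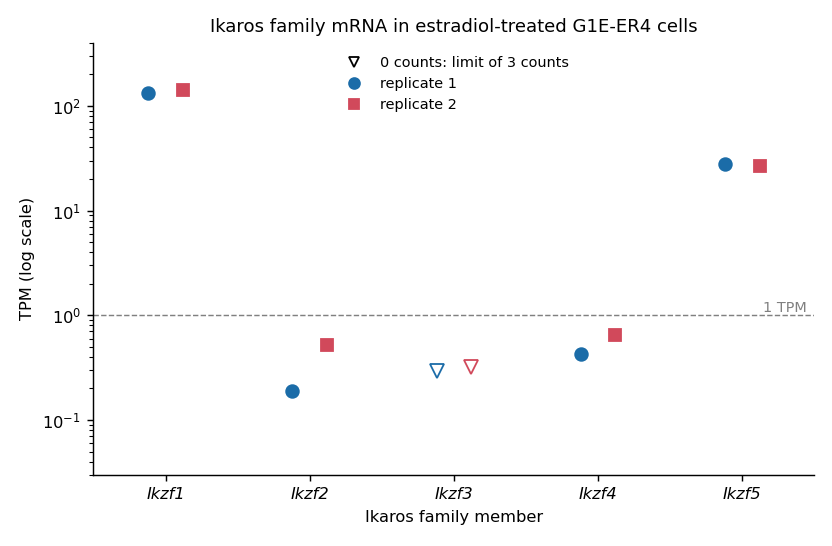
TPM on a log axis for each Ikaros family member, with a circle for replicate 1 and a square for replicate 2; open triangles mark the limit of 3 counts, on the shortest Ikzf3 transcript, where a library held 0, and the dashed line is 1 TPM. Ikzf1 sits near 136 TPM and Ikzf5 near 27.4 TPM, and the other 3 members lie below 1 TPM in both libraries.

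Ikzf1 (ENSMUSG00000018654.13, chr11:11685003-11772926, plus strand) encodes Ikaros, the founding member. It had 131.2 TPM in replicate 1 and 140.2 TPM in replicate 2, from 4127 and 3989 expected counts, a mean of 136 ± 6.36 TPM. It ranked 938th of 21474 protein-coding genes by mean TPM, above 95.6% of all of them and above 89.4% of those detected. Only 5.81% of protein-coding genes averaged 100 TPM or more, and Ikzf1 was among them. Of its mean, 28.4 TPM lay on Ikzf1-206, an incomplete transcript model of 242 bases, from 108 and 73.1 expected counts in replicates 1 and 2. Another incomplete model, Ikzf1-205, held 11.3 TPM from 52.4 and 87.7 counts. The rank of Ikzf1 and its share of the family without these short models were not computed. Scaled by TMM, the count in replicate 2 was 1.07 times that in replicate 1, with an exact 95% Clopper-Pearson interval of 1.02 to 1.12 that covers counting error alone.

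Ikzf5 (ENSMUSG00000040167.11, chr7:131388652-131410521, minus strand) encodes Pegasus. It had 28.1 TPM in replicate 1 and 26.7 TPM in replicate 2, from 1196 and 1058 expected counts, a mean of 27.4 ± 0.948 TPM. This placed Ikzf5 above 82.7% of all protein-coding genes and above 57.9% of the detected ones, close to the median of 20.8 TPM over detected genes. The TMM-scaled ratio of replicate 2 to replicate 1 was 0.978, with a 95% interval of 0.900 to 1.06. Within a library the log2 ratio of Ikzf5 to Ikzf1 in TPM was -2.31 ± 0.12, which puts Ikzf5 4.95-fold below Ikzf1.

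Ikzf4 (ENSMUSG00000002578.11, chr10:128630843-128645991, minus strand) encodes Eos, known as a partner of Foxp3 in regulatory T cells. It held 35 and 32 expected counts in replicates 1 and 2, giving 0.430 and 0.650 TPM. The difference in TPM does not come from the number of reads, since the counts per 1000000 reads (CPM) were 1.71 and 1.72. It follows the effective length in the tables, 5115 bases in replicate 1 and 3392 in replicate 2. In replicate 2 the tables gave 1.10 counts to a transcript of 358 bases, which then held 35.97% of the gene's TPM, while Ikzf4-201 (5150 bases) held all counts in replicate 1 and 30.9 counts in replicate 2. The posterior mean TPM, a second estimate in the tables that contains a prior count, was 1.32 and 1.58 and lies above the detection threshold.

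Ikzf2 (ENSMUSG00000025997.9, chr1:69531214-69687245, minus strand) encodes Helios, a factor of T cells and of inner ear hair cells. Its 17 and 22 expected counts in replicates 1 and 2 gave 0.190 and 0.520 TPM. Here too the effective length differed, 5659 bases in replicate 1 and 2912 in replicate 2, and the levels in CPM were 0.833 and 1.19. Its TMM-scaled count ratio, replicate 2 over replicate 1, was 1.43 with a 95% interval of 0.726 to 2.87, so counting error alone spans equality. Ikzf4 was above Ikzf2 in both libraries, by log2 ratios in TPM of 1.18 and 0.32, a mean of 0.75 ± 0.61. Across the 2 libraries their TPM ranges overlap, and their ranges in CPM do not.

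Ikzf3 (ENSMUSG00000018168.8, chr11:98464902-98546031, minus strand) encodes Aiolos, a partner of Ikaros in B cells. It had 0 expected counts in both libraries on all 4 of its annotated transcripts. A count of 0 allows up to 3 counts, or 0.147 and 0.162 CPM in replicates 1 and 2. On the shortest Ikzf3 transcript, Ikzf3-204 of 670 bases, where a read weighs most in TPM, that limit equals 0.294 and 0.323 TPM. Measured against it, Ikzf1 was at least 446-fold and 434-fold higher in replicates 1 and 2.

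Within a library the log2 ratio to Ikzf1 in TPM was -8.75 ± 0.96 for Ikzf2 and -8.00 ± 0.35 for Ikzf4. The ratio of Ikzf2 was -9.43 in replicate 1 and -8.08 in replicate 2. Both ratios were smaller in size as ratios of expected counts, at -7.71 for Ikzf2 and -6.92 for Ikzf4, and as posterior mean TPM, at -7.29 and -6.47. In bulk RNA, few cells with much of an mRNA and many cells with little of it cannot be told apart, so low counts may come from either.

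Ikzf1 mRNA was spread over several annotated transcripts that differ in an exon of 261 bases at chr11:11748311-11748571, which encodes finger 1. The next exons, of 168 and 123 bases, encode fingers 2 and 3 and finger 4, and the last exon encodes fingers 5 and 6. Ikzf1-203 and Ikzf1-204 contain the 261-base exon and encode 6 fingers in 535 and 515 codons. Ikzf1-201 skips it and encodes 5 fingers in 428 codons, with the other DNA-binding fingers in place. Ikzf1-203 also has an additional exon of 60 bases before the 261-base exon. The junctions are shown because they are where the forms join different exons, with the upstream exon in lower case and the downstream exon in capitals.
Ikzf1-201, skipping from the 120-base to the 168-base exon: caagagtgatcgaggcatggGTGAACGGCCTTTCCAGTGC
Ikzf1-204, from the 120-base into the 261-base exon: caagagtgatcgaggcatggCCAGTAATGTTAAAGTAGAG
Ikzf1-203, from the 120-base into the 60-base exon: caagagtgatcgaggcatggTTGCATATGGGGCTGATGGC
Ikzf1-203, from the 60-base into the 261-base exon: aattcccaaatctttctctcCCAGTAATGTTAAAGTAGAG
The skipping junction, 11707904 to 11754007 on chromosome 11, is also carried by Ikzf1-202 and Ikzf1-205.

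Ikzf1-201 held the largest share of Ikzf1 TPM, 45.2% in replicate 1 and 50.1% in replicate 2. Ikzf1-206, an incomplete model of 242 bases that stops before the 261-base exon, held 24.9% and 17.2%. Ikzf1-204 followed with 18.8% and 16.1%. Ikzf1-205, another incomplete model, held 6.05% and 10.4%, and Ikzf1-203 held 5.17% and 6.17%. Ikzf1-206 was above Ikzf1-204 in both libraries, by little in replicate 2. Ikzf1-202, which ends early and lacks fingers 5 and 6, held 0 counts in both libraries.

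By expected counts the leading form was Ikzf1-204, with 2026 counts in replicate 1 and 1692 in replicate 2. Ikzf1-201 had 1433 and 1547 counts, and Ikzf1-203 had 507 and 590. Ikzf1-206 had 108 and 73.1 counts, or 2.23% ± 0.561 of the gene, against 21.1% ± 5.40 of its TPM. The transcript tables attach to each count a posterior SD, which was 36.6 and 35.3 reads for Ikzf1-201, 76.7 and 82.8 for Ikzf1-204, and 77.0 and 86.3 for Ikzf1-203.

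Among transcripts that reach the 261-base exon, 31.9% of TPM in replicate 1 and 26.9% in replicate 2 contained it, a mean of 29.4% ± 3.50. Transcripts with the exon held 31.4 and 31.2 TPM, and those that skip it held 67.2 and 84.8 TPM, so the groups did not overlap. Ikzf1-206, which ends before the exon, went the other way, from 32.6 TPM in replicate 1 to 24.2 TPM in replicate 2. The skipping forms include the incomplete Ikzf1-205, at 7.94 and 14.6 TPM. Its 52.4 and 87.7 counts had posterior SDs of 14.8 and 16.8 reads. By expected counts the share with the exon was 63.0% and 58.3%, a mean of 60.7% ± 3.38, so which form leads depends on division by length. Ikzf1-201 and Ikzf1-204 also differ at their ends: the last exon is 918 bases in Ikzf1-201 and 4046 in Ikzf1-204, a difference of 3128 bases, and 3232 in Ikzf1-203. Every stretch of 36 bases in Ikzf1-201, the read length inferred from the tables, occurs in another Ikzf1 transcript. The stretches found in no other Ikzf1 transcript were 16.6% in Ikzf1-204 and 8.22% in Ikzf1-203. The tables hold no count of reads over a junction, so exon skipping and a shorter last exon cannot be told apart as the source of the reads given to Ikzf1-201.

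**Figure D2:**
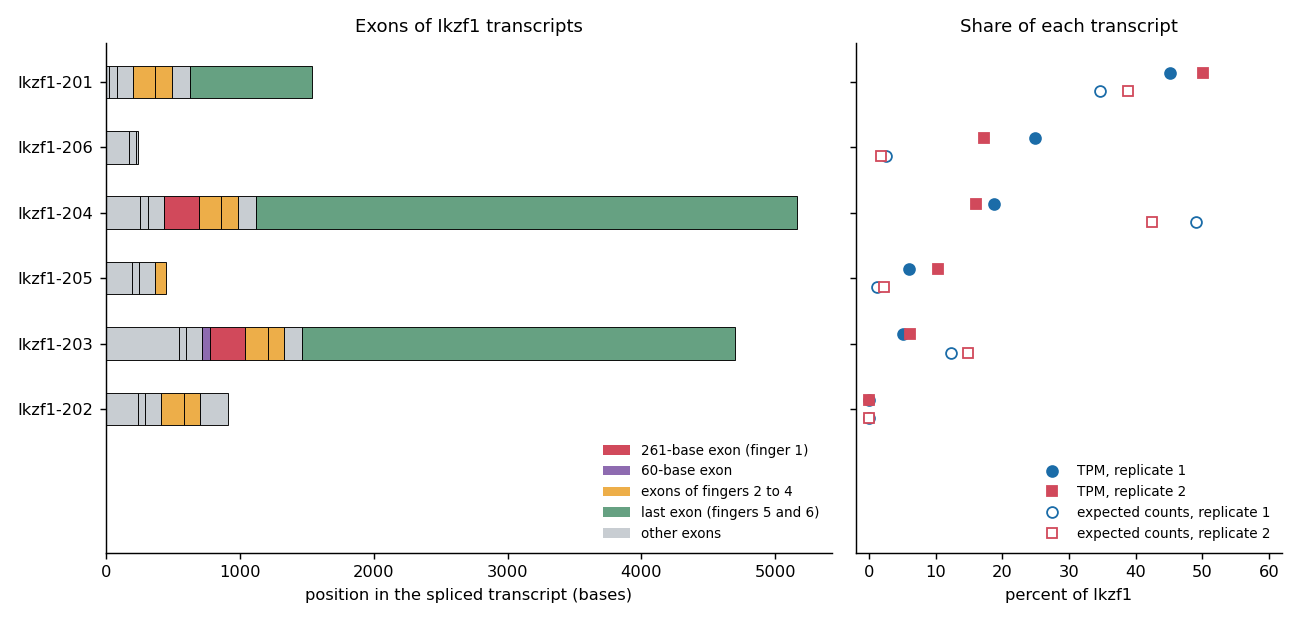
Left, exons of the annotated Ikzf1 transcripts drawn to scale in spliced bases, coloured by the fingers they encode; right, each transcript's percent of Ikzf1 TPM (filled) and of Ikzf1 expected counts (open), with circles for replicate 1 and squares for replicate 2. Ikzf1-201 leads by TPM at 45.2% and 50.1%, and the longer Ikzf1-204 leads by counts.

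Ikzf5 was led by Ikzf5-201, the 4430-base transcript that encodes 5 fingers, on both scales. It held 47.3% of Ikzf5 TPM in replicate 1 and 46.0% in replicate 2, from 935 and 790 expected counts, or 76.4% ± 2.51 of the gene's counts. Ikzf5-202, which encodes 3 fingers in 266 codons, held 19.4% and 25.3% of TPM. The short models moved most between libraries. Ikzf5-203 held 14.9% and 4.94%, Ikzf5-204 held 14.3% and 4.13%, and Ikzf5-205 held 4.16% and 19.6% in replicates 1 and 2. All 3 had under 50 expected counts in each library, and Ikzf5-205 had 8.47 and 34.7, with posterior SDs of 12.3 and 13.6 reads. Ikzf5-204 in the tables differs in length from its M21 entry.

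**Figure D3:**
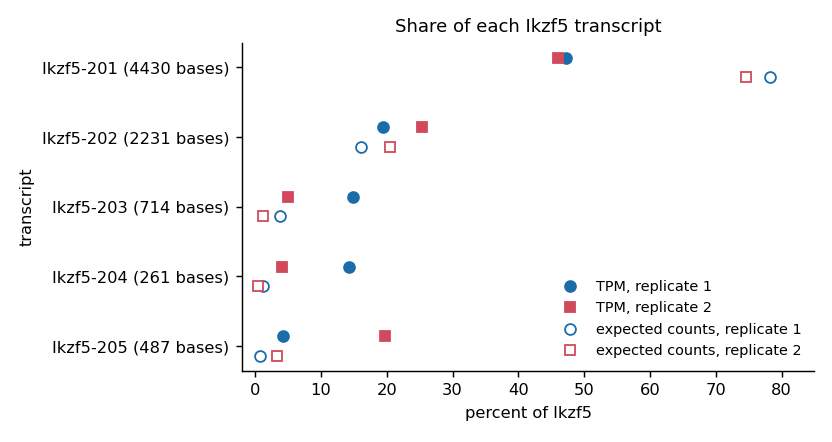
Percent of Ikzf5 TPM (filled) and of Ikzf5 expected counts (open) held by each annotated transcript, with circles for replicate 1 and squares for replicate 2. Ikzf5-201 holds 47.3% and 46.0% of TPM and a larger share of counts, while the 3 shortest transcripts change places between libraries.

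Ikzf5 was the member with the largest share of sequence found elsewhere in the annotation. Of its 4896 distinct 36-base stretches, 875 also occur in the processed pseudogene Gm10356, leaving 82.1% found in no other gene. The tables gave Gm10356 115 and 129 expected counts in replicates 1 and 2. Between 99.0% and 100% of the stretches of the other members were unique, and no stretch was shared between members. In M21 the exons of Pstk, a selenocysteine pathway kinase on the opposite strand with 371 and 284 expected counts, cover 81.3% of Ikzf5 exonic bases. The Pstk transcripts of the deposited tables that match M21 in length have no exon in the Ikzf5 locus. Strand use in counting is not stated, so reads from the opposite strand of Ikzf5 cannot be told apart from its own.

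The libraries agreed closely for both detected members. Over the 9309 genes with at least 50 counts on average, 98, or 1.05%, were over 2-fold apart between libraries, and the median absolute log2 ratio was 0.14. Ikzf1 and Ikzf5 were not among the 98, with absolute log2 ratios of 0.10 and 0.03.

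Ikzf1 lay below 7 of the 59 listed transcription factors of blood cells. Its level here includes 28.4 TPM on the incomplete model Ikzf1-206 and 11.3 TPM on Ikzf1-205, and its place without them was not computed. The factors next above Ikzf1 were Ldb1, a LIM-domain binding protein, at 264.8 and 279.1 TPM, and its partner Lmo2 at 273.5 and 247.9 TPM. Next below were the forkhead factor Foxo3 at 130.1 and 137.4 TPM, which overlapped Ikzf1, and Tal1, the helix-loop-helix factor of the same complex as Ldb1 and Lmo2, at 112.1 and 116.5 TPM. The highest of the list were Gata1, Zfpm1, Gfi1b and Klf1, core erythroid regulators with mean levels of 2947, 897, 503 and 412 TPM. In the Gata1 row, reads of the GATA-1 fusion cannot be told apart from reads of other Gata1 mRNA.

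Ikzf5 lay below 20 of the 59 factors. Next above it were Zbtb7a, a repressor of fetal globin genes, at 39.4 and 38.7 TPM, and the homeobox factor Hhex at 32.5 and 25.6 TPM. Patz1, a BTB zinc finger factor, was next below at 25.9 and 28.2 TPM, followed by Spi1, the myeloid and lymphoid factor PU.1, at 19.1 and 18.4 TPM. The ranges of Hhex and Patz1 overlapped that of Ikzf5, and those of Zbtb7a and Spi1 did not. Of the 59 factors 35, or 59.3%, were detected, beside 41.2% of protein-coding genes, and 10 had 0 counts in both libraries, among them Runx2 and Runx3, which work in bone and T cells. Likeness here is closeness of mean TPM over 2 libraries of the same group, which shows no pattern across conditions.

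**Figure D4:**
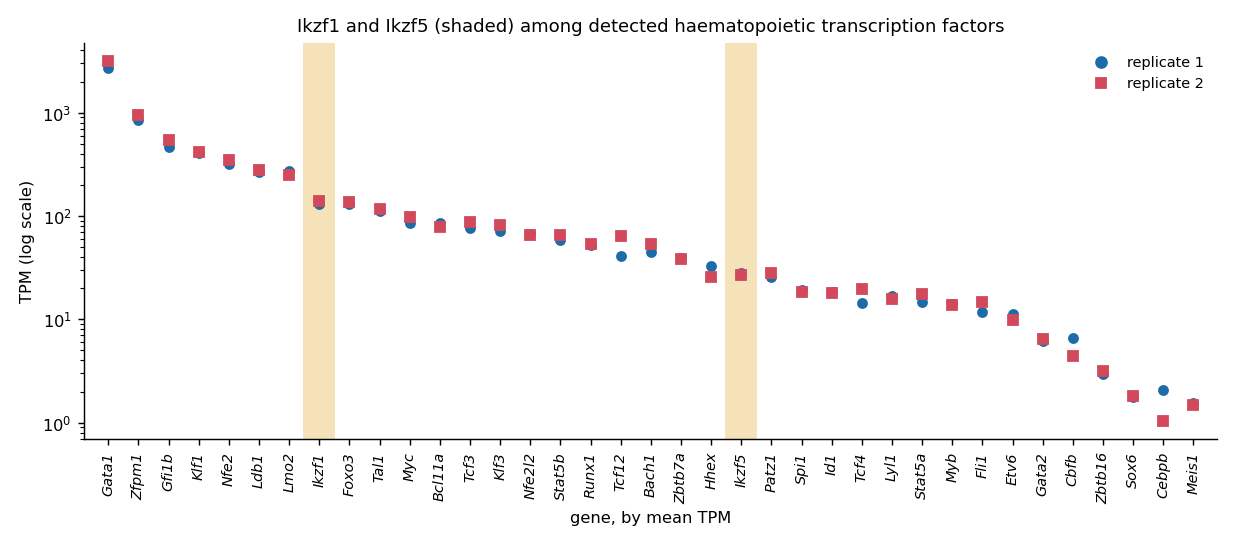
TPM on a log axis of the 35 detected haematopoietic transcription factors with Ikzf1 and Ikzf5 added (shaded), ordered by mean TPM, with circles for replicate 1 and squares for replicate 2. Ikzf1, with its incomplete transcript models included, stands below 7 factors and level with Foxo3, and Ikzf5 stands between Hhex and Patz1.

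All listed genes of the complexes through which Ikaros acts were detected, beside 41.2% of protein-coding genes. The gene lists here were chosen with earlier results of these data known. No list of other chromatin or transcription genes was compared, so whether this share is particular to partners of Ikaros was not tested. The 13 listed genes of NuRD, the remodelling and deacetylase complex that Ikaros binds most stably, had a median of 55.7 TPM. The highest were Mbd2 at 171.9 and 162.9 TPM, Mbd3 at 141.9 and 158.6 TPM, Rbbp4 at 139.5 and 139.7 TPM and Mta2 at 118.3 and 121.5 TPM. The lowest were the deacetylase Hdac2 at 47.1 and 31.8 TPM and the remodeller Chd3 at 16.6 and 18.0 TPM. The median detected protein-coding gene was at 20.8 TPM, below 12 of the 13.

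All 11 SWI/SNF genes, a remodeller also found with Ikaros, were detected, with a median of 75.7 TPM. They reached from the ATPase Smarca2, at 9.4 and 6.66 TPM, to the DNA-bending subunit Smarce1, at 313.1 and 297.6 TPM. Next to Smarce1 were Arid1a at 142.4 and 150.6 TPM, Smarcd2 at 100.2 and 103.0 TPM and the ATPase Smarca4 at 97.0 and 104.0 TPM, while Smarcd1 stood at 14.7 and 16.3 TPM. Of the corepressors all 7 were detected, in separate tiers. The scaffolds Sin3b and Sin3a had 146 ± 10.3 and 96.8 ± 17.8 TPM, and Ctbp1, a repressor that binds a short motif in Ikaros, had 128 ± 4.92 TPM. Sap18, Ctbp2, Sap30 and Rbbp8 averaged 9.97, 9.80, 8.71 and 6.83 TPM.

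The 8 genes of Polycomb complex 2 and P-TEFb were all detected, with a median of 41.8 TPM. Ezh2, the methyltransferase, had 149.8 and 133.4 TPM, and its relative Ezh1 had 23.9 and 26.6 TPM. The subunits Eed and Suz12 averaged 68.1 ± 13.7 and 38.3 ± 11.6 TPM. Of the elongation kinase, Cdk9 averaged 58.5 ± 1.15 TPM and its cyclins Ccnt2 and Ccnt1 averaged 43.3 ± 0.00707 and 40.2 ± 1.26 TPM, with the inhibitor Hexim1 at 11.9 ± 1.58 TPM.

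Enzymes known to modify Ikaros were detected for 12 of 13 genes, or 92.3%, beside 41.2% of protein-coding genes. Among the highest were Ppp1ca at 483.8 and 497.8 TPM and Ppp1cc at 187.8 and 217.6 TPM, catalytic subunits of the phosphatase that removes phosphate from Ikaros. The regulatory subunit of casein kinase 2, Csnk2b, had 356.1 and 440.2 TPM. At the low end Pias3, a SUMO ligase, had 5.67 and 7.76 TPM, and the lymphoid kinase Syk had 0 counts in both libraries. Of the ligase through which lenalidomide-type drugs destroy IKZF1 and IKZF3 in human cells, mRNA of all 5 listed parts was detected. No protein and no drug response of this ligase was measured in these mouse cells. Its receptor Crbn averaged 39.8 ± 5.13 TPM, the adaptor Ddb1 328 ± 23.7, the scaffolds Cul4a and Cul4b 124 ± 3.10 and 13.6 ± 1.42, and Rbx1 28.8 ± 2.04 TPM.

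Of 31 genes that Ikaros family factors are known to control in lymphoid cells, 1 was detected. It was Hes1, a Notch target that Ikaros represses in thymocytes, at 10.7 and 11.2 TPM. The next highest were Prdm1 at 0.50 and 0.46 TPM, Vpreb1 at 0.27 and 0.50 TPM and Cd79a at 0.44 and 0.29 TPM, the last a part of the B cell receptor. Rag2, Pax5 and the other genes at the bottom of the list made up 16 with 0 counts in both libraries. The share detected was 3.23%, beside 41.2% of protein-coding genes. Many of these genes, though not Hes1, are known for lymphoid expression in general, and no library of lymphoid cells was analysed here.

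**Figure D5:**
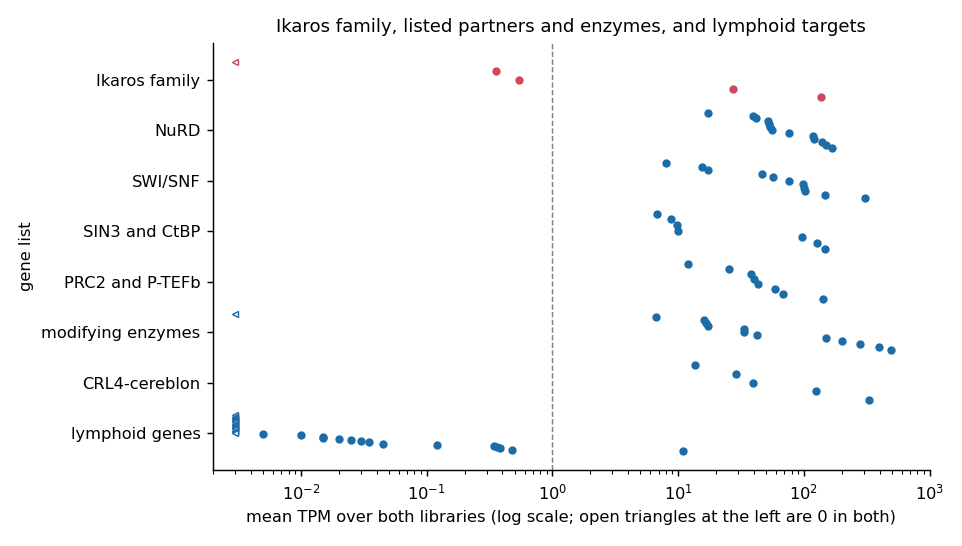
Mean TPM over both libraries, on a log axis, of each gene in the Ikaros family, in the lists of its partner complexes and enzymes, and in the list of lymphoid genes it controls; the dashed line is 1 TPM and open triangles mark genes at 0 in both libraries. The partner complexes lie to the right of the line, while all genes of the lymphoid list but Hes1 lie to its left.

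At 1 TPM in both libraries, where 41.2% of protein-coding genes were detected, all 10 erythroid markers were, with a median of 506 TPM. The 13 globin genes held 10.6% and 12.2% of TPM in replicates 1 and 2. Of lymphoid markers 1 of 12 for T cells was detected, Cd247 at 2.36 and 4.76 TPM, and none of 10 for B cells or 8 for natural killer and innate lymphoid cells. Their summed levels were 2.53 and 4.93 TPM for T cells, 0.770 and 0.820 TPM for B cells, and 0 and 0.0800 TPM for natural killer cells. Of these lists 8 T cell, 7 B cell and 6 natural killer and innate lymphoid markers had 0 counts in both libraries, among them Cd3d, Cd3e, Pax5 and Ighm. Counts above 0 in both libraries were held by Cd247, with 48.5 and 89.2, by Lck, with 2 and 2, and by the B cell genes Cd79a, with 10 and 6, Vpreb1, with 2.97 and 5.04, and Ebf1, with 3 and 1.1. Any part of such cells in the level of Ikzf1 was not tested. No myeloid marker of 11 and no mast cell marker of 7 was detected. Of 9 megakaryocyte markers 6, or 66.7%, were detected, led by Tubb1 at 61.3 and 64.2 TPM. Of the same 9, 3 reached 5 TPM, and the share of protein-coding genes at 5 TPM was not computed.

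RefSeq promoter windows (GRCm38) around the start of transcription were available for Ikzf1, with 2 start sites, and for Ikzf5. The core GGGAA, counted on both strands, occurred 1 time in the Ikzf5 promoter, and 0 and 2 times in those of Ikzf1, in a table where 62.7% of 32851 promoters hold it. GATAA, part of the site that GATA factors bind, occurred in none of the 3, and in 25.4% of all. These counts describe the letters of the windows alone.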

How the data were processed

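Per the deposited file manifests, single-end reads of 2 libraries were quantified on mm10 with GENCODE M4, 1 library per file. Aligner, quantifier and versions: not given in the sources used here. Each gene and transcript has an expected count, per the file headers, in which a read that fits several places is divided among them. Replicate 1 held 20412826 expected counts and replicate 2 held 18564086. The authors also deposited TPM, posterior mean TPM and FPKM, and for each transcript its percent of the TPM of its gene. Reads of 36 bases were inferred from length and effective length. No molecular identifiers are recorded, so intervals and floors reflect counting error alone, and the labels do not say whether the replicates were separate cultures, so the spread may be in part technical.

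Symbols, exons and coding sequences came from GENCODE M21 on the same assembly, which matched 42462 of 43346 identifiers. Of the 8 Ikzf4 transcripts in the tables, 1 was in M21 by identifier. Stretches of 36 bases were compared over the 91424 of 141767 M21 transcripts that the tables list with the same length. Rows without an Ensembl identifier were left out of gene counts.

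Values are given for both libraries with mean ± SD and no test. For the comparison between libraries, expected counts were rounded and scaled by TMM in edgeR 4.0.16 (R 4.3.3), and by library total or DESeq2 1.42.0 size factors as alternatives. These steps were tested on simulated data. Members and gene lists were chosen with earlier results of these data known. Named genes are all members, every gene of lists of up to 8 and otherwise the 4 highest and 2 lowest by mean TPM, the 2 blood cell factors next to each detected member on either side, and transcripts with at least 5% of TPM in a library for members with 20 or more counts in both. The genes named in the checks of lymphoid markers and of shared reads were chosen after their values were seen. A gene that this rule would name is not reported here.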

Additional observations from a re-analysis of the deposited data

How the results depend on the processing

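No paired analysis was possible because both libraries belong to 1 group. Of the alternatives tried for the main values, 43 stayed within the spread between libraries, 25 moved beyond it and 0 changed sign. Leaving out 1 of 2 libraries always shifts a mean level, ratio or share by less than the SD. Those alternatives therefore could not move beyond the spread, and levels, counts and shares cannot change sign. With posterior mean TPM the mean levels were 128.1 for Ikzf1, 0.840 for Ikzf2, 0.200 for Ikzf3 and 1.45 for Ikzf4, and the family sum was 157.2 TPM. In FPKM, Ikzf1 had 106.8 and Ikzf5 21.6. Without the globin genes Ikzf1 had 153.3 and Ikzf5 30.9 TPM. As a ratio of expected counts, the log2 ratio to Ikzf1 was -1.85 for Ikzf5, -6.92 for Ikzf4 and -7.71 for Ikzf2. With posterior mean TPM it was -6.47 for Ikzf4 and -7.29 for Ikzf2, and with 1 TPM added -6.48 and -6.67. At 0.1 TPM, or with 10 expected counts, 4 members were detected, and the share of protein-coding genes at these settings was not computed. By expected counts the transcript that leads by TPM held 36.7% of Ikzf1 and 76.4% of Ikzf5. By posterior mean TPM it held 22.8% of Ikzf4 and 45.3% of Ikzf5. Ikzf1 stood above 95.6% of all protein-coding genes, and with 1 library left out above 89.3% to 90.0% of detected ones. With at least 10 counts on average, 383 genes were over 2-fold apart. The number of genes at that minimum is not given, so this count has no share beside it. Expected counts are not divided by length, the posterior mean contains a prior count, and the lower count minimum admits more genes. FPKM and TPM without the globin genes multiply all values of a library by the same factor. The cause of the other shifts was not tested. No ratio was computed for Ikzf3, which had 0 counts, and no leading transcript for Ikzf2, which had 17 counts in replicate 1, or for Ikzf3. Counts of 17 to 35 limit Ikzf2 and Ikzf4.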
